A study of Mus musculus with 32 samples.

Results

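The respiratory chain passes electrons from NADH and succinate through complexes I to IV of the inner mitochondrial membrane, and complex V, the ATP synthase, uses the proton gradient that this builds up. Most subunits are encoded by nuclear genes and imported into the mitochondrion, while a few core subunits of complexes I, III, IV and V are encoded by the mitochondrial DNA itself. Embryonic stem cells can draw on both glycolysis and respiration, and the balance between them is known to change when they leave the naive state.

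The genes described here are the subunits of these complexes. They were chosen by mouse symbol: nuclear genes of the Nduf, Sdh, Uqcr, Cox and Atp5 families and the protein-coding genes of the mitochondrial DNA, without pseudogenes, at a mean of at least 5 CPM (counts scaled to a library total of 1000000) over 31 libraries. Of 98 matching rows, 86 met this limit, out of 31053 rows in the tables and 9486 rows at the same limit. They comprised 76 nuclear and 10 mitochondrial genes: 40 of complex I, 4 of complex II, 9 of complex III, 16 of complex IV and 17 of complex V. All 86 also passed the filter on low counts of the statistical model.

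RNA came from E14 mouse embryonic stem cells, a line derived from the blastocyst, grown in serum-free N2B27 medium on gelatin. In the 2i course the cells had been kept in CHIR99021 (3 uM), which blocks the kinase GSK3, and PD0325901 (1 uM), which blocks the kinase MEK. In the 2iL course the cytokine LIF had been added to both inhibitors. The supplements were then replaced by N2B27 alone, and cells were collected 12, 24, 36, 48, 60, 72 and 84 h later in the 2i course and 24, 36, 48, 60, 72, 84 and 96 h later in the 2iL course. Cells still in 2i or in 2iL formed the 0 h group of each course. Each of the 16 groups held 2 libraries of polyadenylated RNA, read from the 3′ ends of transcripts. Nothing in the labels says whether the replicates were separate cultures, so the p-values measure only the spread between these libraries.

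Total counts ran from 1122648 to 3438514 in 31 libraries, with a median of 1980949, while 2iL 36 h replicate 2 held 7298 and its values are not given. Nuclear members took 0.772 to 1.54% of the counts of the 31 libraries and mitochondrial members 0.244 to 0.784%. The row Gm42418, which overlaps ribosomal RNA sequence, held 88559 to 367228 CPM, highest in 2i 12 h replicate 2. That library and 3 of the 2iL course (48 h replicate 1, 84 h replicate 2 and 96 h replicate 1) were treated as standing apart, a choice made with earlier results of these data known, and counts without these 4 libraries are given where they differ. The 6 naive pluripotency markers summed to 42.6 to 59.7 CPM at 84 h against 1030 to 1116 CPM at 0 h in the 2i course, and to 52.0 to 62.6 CPM at 96 h against 2423 to 2434 CPM at 0 h in the 2iL course. Each of the 6 was called lower at both times, while 4 of 5 embryonic stem cell markers were called lower.

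The mitochondrial genes were not all measured equally well. Per count of 3′ ends, without scaling by length, mt-Nd1 averaged 1494 CPM over the 31 libraries, mt-Nd2 1103, mt-Nd4 969 and mt-Cytb 817 CPM. Core subunits mt-Co1 and mt-Nd5 averaged 237 and 236 CPM, and mt-Nd6, the gene encoded on the other strand, 32.2 CPM. In contrast, mt-Co3 averaged 10.9, mt-Co2 7.96 and mt-Atp6 7.63 CPM. The remaining protein-coding genes were under the limit, with mt-Nd3 at 2.79 CPM, mt-Atp8 at 0.484 CPM and mt-Nd4l without a single count in 32 libraries.

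Except for mt-Atp8, the genes at or under 10.9 CPM have annotated near-identical copies in the nuclear genome. The search covered annotated transcripts only, so a copy without an annotation would be missed. In the annotation (GENCODE M21, mm10), 22 of the 86 members had a match of at least 95% identity over at least 100 of the last 300 transcript bases elsewhere: 17 of 76 nuclear and 5 of 10 mitochondrial members. The mitochondrial members with such a copy had a median of 10.9 CPM and those without one 817 CPM. A stretch of chromosome 1 (chr1:24612407-24616197, mm10, 3791 bases) holds 6 annotated pseudogenes that match mt-Nd4l, mt-Nd3, mt-Co3, mt-Atp6, mt-Co2 and the end of mt-Co1. Reads that align to both places equally well are not counted for either when only unique alignments are used, and the part this played was not tested. By position, the end of mt-Nd4l also overlaps the start of mt-Nd4, and the end of mt-Atp8 the start of mt-Atp6. The part of this overlap in their low counts was not tested either. On the mitochondrial DNA mt-Atp8 lies between mt-Co2 and mt-Atp6, which both match pseudogenes of the chromosome 1 stretch. Whether that stretch also holds a copy of mt-Atp8 was not tested. The sequences below are shown because they set a pair that cannot be told apart beside a pair that can. The copy Gm28437 was identical to mt-Co3 over all 783 aligned bases, and the printed stretches are mt-Co3 (chrM:9290-9389, plus strand) and its copy (chr1:24613189-24613288, minus strand), with no difference.
mt-Co3: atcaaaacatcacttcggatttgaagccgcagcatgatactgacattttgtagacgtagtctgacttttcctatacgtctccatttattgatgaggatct
Gm28437: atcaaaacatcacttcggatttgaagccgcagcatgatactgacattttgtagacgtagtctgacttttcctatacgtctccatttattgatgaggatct
The copy Gm13339 differed from mt-Nd2 at 17 of 510 aligned bases (96.67% identity). The end of mt-Nd2 (chrM:4852-4951, plus strand) and the same stretch of the copy (chr2:22590024-22590123, minus strand) differ at 3 bases, which are in capitals.
mt-Nd2: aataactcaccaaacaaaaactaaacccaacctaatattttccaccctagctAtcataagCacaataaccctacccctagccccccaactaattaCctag
Gm13339: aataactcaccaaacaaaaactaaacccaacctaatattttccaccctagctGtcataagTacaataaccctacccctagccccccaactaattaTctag

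**Figure D1:**
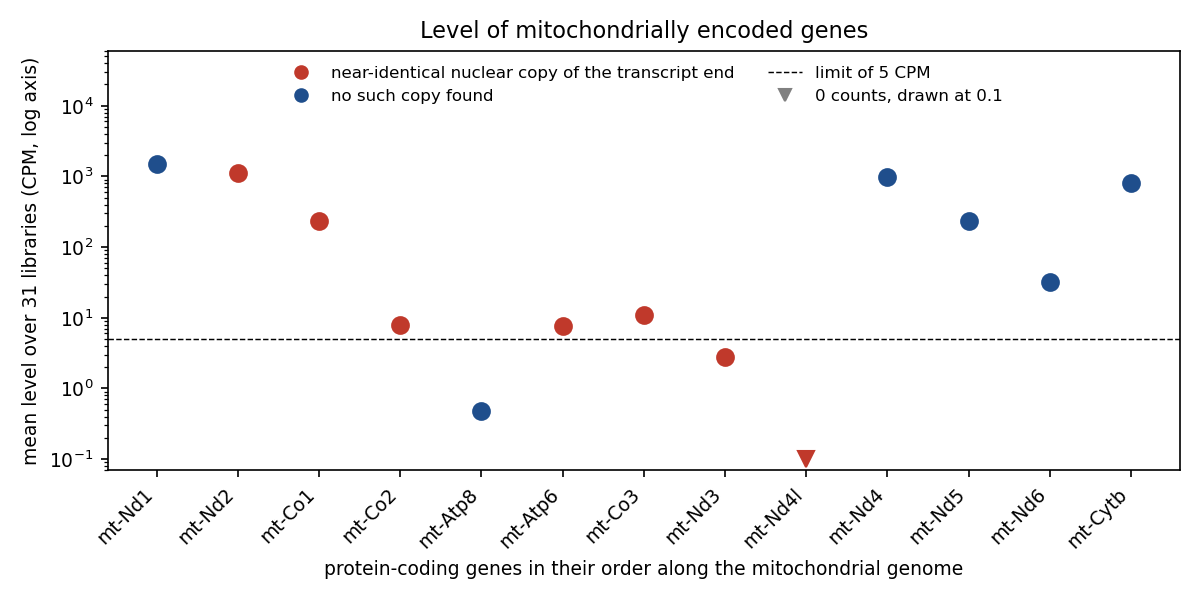
Mean level of the 13 protein-coding genes of the mitochondrial DNA in genome order (CPM, log axis). Genes with an annotated near-identical nuclear copy are in red, and the limit of 5 CPM is a dashed line. Genes with a copy that matches without a difference sit low, except mt-Co1 at 237 CPM, and mt-Nd4l had 0 counts and is drawn at the foot of the axis.

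The promoters of the nuclear members were searched for 3 motifs, which the rule did not use. NRF1, GABP (an ETS family factor) and YY1 are transcription factors known to bind promoters of respiratory chain genes. Windows of 300 bases, from 250 before to 50 after each start, were available for 63 of the 76 nuclear members (68 windows; RefSeq, GRCm38.p6). The NRF1 motif (GCGC, any base, then TGCGC), searched on both strands, was present in 17 of these 68 windows, in 10.1% of the 11824 windows of all tested genes and in 4.6% of all 32851 windows. The YY1 motif AANATGGC was present in 23.5% of member windows and 8.44% of those of tested genes, and the ETS motif CCGGAAGT in 7.35% and 8.18%. The promoters of Cox6a1, Ndufb4 and Atp5c1 are printed because, among members called lower at the last time of both courses and holding an NRF1 match, these had the largest mean fall. Capitals mark the NRF1 matches: 2 in Cox6a1 (chr5:115348909-115349208, minus strand), 3 in Ndufb4 (chr16:37654319-37654618, minus strand) and 1 in Atp5c1 (chr2:10080383-10080682, minus strand).
Cox6a1: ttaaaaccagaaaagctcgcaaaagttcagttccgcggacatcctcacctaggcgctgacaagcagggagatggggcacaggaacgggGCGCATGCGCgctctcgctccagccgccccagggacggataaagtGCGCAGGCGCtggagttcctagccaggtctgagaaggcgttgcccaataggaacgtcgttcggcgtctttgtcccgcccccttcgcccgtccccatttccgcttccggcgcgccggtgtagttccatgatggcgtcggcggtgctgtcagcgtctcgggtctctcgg
Ndufb4: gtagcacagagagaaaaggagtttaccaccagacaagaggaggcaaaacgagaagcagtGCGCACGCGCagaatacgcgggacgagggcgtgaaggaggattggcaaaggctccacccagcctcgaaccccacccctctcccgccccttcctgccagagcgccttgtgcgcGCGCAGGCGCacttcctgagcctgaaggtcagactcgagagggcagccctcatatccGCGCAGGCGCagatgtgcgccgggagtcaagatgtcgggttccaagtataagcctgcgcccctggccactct
Atp5c1: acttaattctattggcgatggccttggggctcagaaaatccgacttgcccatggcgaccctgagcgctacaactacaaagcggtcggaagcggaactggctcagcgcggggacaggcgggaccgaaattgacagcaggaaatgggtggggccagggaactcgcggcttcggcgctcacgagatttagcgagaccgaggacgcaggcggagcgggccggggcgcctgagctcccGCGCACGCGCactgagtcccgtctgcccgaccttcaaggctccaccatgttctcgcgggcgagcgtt
The 16 members with an NRF1 match had a median log2 fold change of -0.73 at 84 h of the 2i course, against -0.63 in the 47 without one. These medians were -0.69 and -0.65 at 96 h in the 2iL course. For the YY1 motif the medians were -0.67 with and -0.69 without a match at 84 h, and -0.76 and -0.65 at 96 h. The 5 members with the ETS motif had medians of -0.54 and -0.47 at these times, against -0.69 and -0.69 in the 58 without it. The transcript of Nrf1 itself was not called at either time (log2 fold change -0.16, edgeR adjusted p = 0.60 at 84 h; -0.28, adjusted p = 0.30 at 96 h). That of Gabpa, the DNA-binding subunit of GABP, was called lower at both (log2 fold change -0.76 ± 0.29 SE, adjusted p = 0.041, and -0.85 ± 0.27 SE, adjusted p = 0.013). Nrf1 and Gabpa were chosen after their values were seen.

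As a whole, the transcripts of both genomes declined in both courses, but not at the same pace. The 76 nuclear members together reached 8898 and 8683 CPM (scaled by TMM, a correction for library composition) in the libraries at 84 h of the 2i course, against 14190 and 13997 CPM at 0 h, or 62.4% of the 0 h level. In the 2iL course they reached 8858 and 9574 CPM at 96 h, against 14210 and 15489 CPM at 0 h, or 62.1%. In both courses the libraries of the last time lay below those of 0 h without overlap. In bulk RNA, fewer cells of a type and less RNA per cell cannot be told apart.

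At 12 h of the 2i course the 10 mitochondrial members summed to 5348 and 6140 CPM, which overlapped the 5865 and 5588 CPM of 0 h. At 24 h they were above their 0 h level in both courses. They summed to 6682 and 6793 CPM at 24 h of the 2i course, against 5865 and 5588 CPM at 0 h (118%), and to 7091 and 7467 CPM at 24 h of the 2iL course, against 5012 and 5081 CPM at 0 h (144%). At 72 h the courses stood apart: the sums were 3270 and 3681 CPM in the 2i course (60.7% of 0 h), while they were 4920 and 5197 CPM in the 2iL course (100.2% of 0 h). At the last time they were 3201 and 3048 CPM in the 2i course (54.6%) and 2420 and 2743 CPM in the 2iL course (51.2%). The ratio of the nuclear to the mitochondrial sum was therefore lower at 24 h, 1.94 and 1.91, than at 0 h, 2.42 and 2.51, in the 2i course, and likewise 1.82 and 1.74 at 24 h against 2.84 and 3.05 at 0 h in the 2iL course. At the last time it was above the 0 h values in both courses, at 2.78 and 2.85 in the 2i course and 3.66 and 3.49 in the 2iL course. These sums rest mainly on the most abundant genes: the median log2 fold change of the 10 mitochondrial members was -0.48 at 84 h of the 2i course, against -0.67 in the nuclear members, while at 96 h of the 2iL course it was -0.98 against -0.72. Over 31 libraries the nuclear and mitochondrial sums had a Pearson correlation of 0.787, and the nuclear sums of the complexes correlated with each other between 0.652 (complexes I and II) and 0.946 (complexes III and IV). These are descriptions of libraries that share a time course, with no test.

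**Figure D2:**
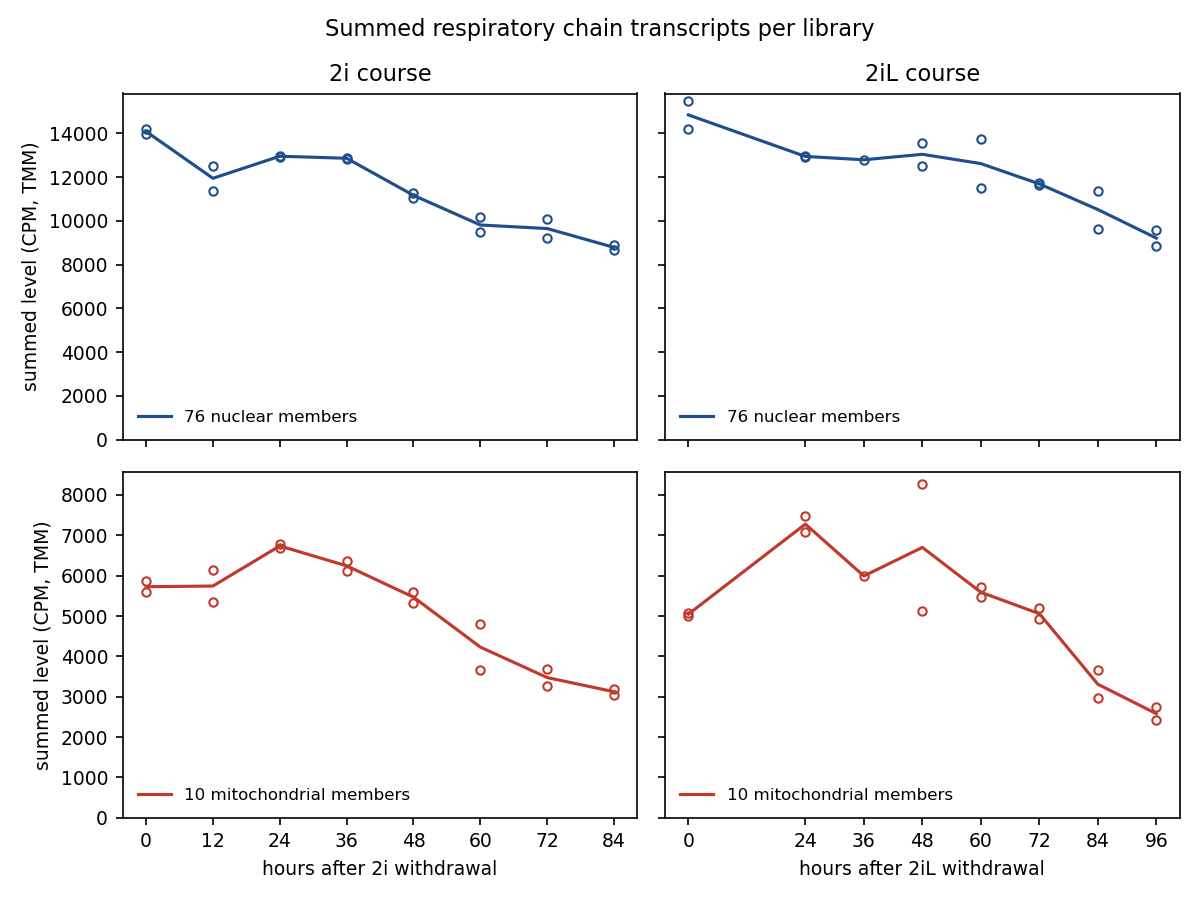
Summed level (TMM-scaled CPM) of the 76 nuclear members in the upper panels and the 10 mitochondrial members in the lower panels against hours after withdrawal, with the 2i course on the left and the 2iL course on the right. Points are libraries and lines join group means; 2iL 36 h replicate 2 is left out. The nuclear sums end below 0 h in both courses, though in the 2i course they are higher at 24 h (12935 and 12985 CPM) than at 12 h (12531 and 11368 CPM). The mitochondrial sums are above 0 h at 24 h and below it at the last time.

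Before withdrawal, the 2i and 2iL cells differed in few members. In 2i against 2iL cells, 1 of 86 members was called higher and 2 lower by edgeR's quasi-likelihood test at an adjusted p under 0.05. Of the 11761 tested genes, 4.03% were called higher and 4.42% lower. Cox7a1, the isoform of a complex IV subunit known from heart and skeletal muscle, stood at 8.53 and 14.2 CPM in 2i cells, against 31.2 and 34.4 CPM in 2iL cells (log2 fold change -1.56 ± 0.37 SE, adjusted p = 0.0049). Both 2i libraries were below both 2iL libraries, from 21 and 25 counts in 2i and 73 and 76 counts in 2iL. Sdhb, the iron-sulphur subunit of succinate dehydrogenase, had 158 and 139 CPM in 2i cells against 200.4 and 244 CPM in 2iL cells (-0.58 ± 0.18, adjusted p = 0.042). Ndufa12, an accessory subunit of complex I, had 226 and 179.6 CPM in 2i cells against 105 and 119.5 CPM in 2iL cells (0.86 ± 0.23, adjusted p = 0.011). For all 3 genes the 2 libraries of one medium lay apart from those of the other. The medians of the nuclear (-0.08) and mitochondrial members (0.11) were near that of all tested genes (0.03). Leaving out 1 library at a time, the 3 calls became 0 (2i replicate 1), 2 (2i replicate 2), 1 (2iL replicate 1) and 0 (2iL replicate 2). The Sdhb call was lost without any 1 of the 4 libraries, and also with no filter on low counts. That of Ndufa12 held only without 2i replicate 2, and that of Cox7a1 was lost without 2i replicate 1 or 2iL replicate 2. DESeq2 made 0 calls, and edgeR made 8 without the 4 libraries that stood apart.

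During the first day after 2i withdrawal, few members were called, in both directions. At 12 h, 3 members were called higher and 3 lower, where 5.65% of all tested genes were called higher and 5.8% lower. At 24 h, 2 were called higher and 4 lower, where 8.58% were called higher and 9.57% lower. The calls made 7.0% of the 86 members at each time, a smaller share than among all tested genes. They are therefore given as single genes only. Atp5g1, one of 3 genes for the subunit c that forms the rotor ring of ATP synthase, had 147 and 144 CPM at 12 h and 111 and 106 CPM at 24 h, against 73.9 and 73.9 CPM at 0 h. Its log2 fold change was 0.98 ± 0.20 SE at 12 h (adjusted p = 0.00093) and 0.56 ± 0.20 at 24 h (adjusted p = 0.044). The libraries did not overlap, and the 12 h call held without each library in turn, while the 24 h call was lost without any 1 of the 4. Uqcrq, a small subunit of complex III, had 219.8 and 214 CPM at 24 h against 117 and 127 CPM at 0 h (0.83 ± 0.20, adjusted p = 0.0031), a call lost without 0 h replicate 1.

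The mitochondrial mt-Nd5, a core proton-pumping subunit of complex I, had 265 and 547 CPM at 12 h against 202 and 217 CPM at 0 h (0.94 ± 0.23, adjusted p = 0.0047). The larger of the 12 h values came from replicate 2, the library with the highest Gm42418 level, and the call was lost without it or without 0 h replicate 1. The call for mt-Atp6, at 15.5 and 13.3 CPM at 12 h against 7.31 and 5.68 CPM at 0 h, was lost without any 1 of the 4 libraries. The called falls included those of the complex I subunit Ndufb11 (log2 fold change -1.41) and of Cox7a2 (-0.66) at 12 h, and of Cox7a1 (-1.60), Cox7a2l (-0.80), Atp5mpl (-0.63) and Cox7a2 (-0.57) at 24 h. The 12 h calls for Ndufb11 and Cox7a2 were lost without 0 h replicate 1 or 12 h replicate 2. At 24 h those for Cox7a2 and Atp5mpl were lost without any 1 of the 4 libraries, that for Cox7a2l without 3 (all but 0 h replicate 1) and that for Cox7a1 without replicate 2 of either time. The medians of the nuclear members were -0.27 at 12 h and -0.07 at 24 h, and those of the mitochondrial members 0.12 and 0.15, against -0.01 and -0.02 over all tested genes. The 6 calls at 12 h became 2 and 4 without 0 h replicates 1 and 2 and 7 and 1 without 12 h replicates 1 and 2. The 6 calls at 24 h became 2 and 1 without 0 h replicates 1 and 2 and 2 and 1 without 24 h replicates 1 and 2.

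After 24 h of 2iL withdrawal, 4 of 86 members were called higher and 6 lower, where 5.56% of all tested genes were called higher and 6.5% lower. These counts are close to the background and are read as single genes only. Of the 4 higher, 3 were mitochondrial. mt-Nd2, a core subunit of complex I, had 1779 and 2415 CPM at 24 h against 1059 and 1059 CPM at 0 h (log2 fold change 0.98 ± 0.25 SE, adjusted p = 0.0079). mt-Nd5 had 374 and 267 CPM at 24 h against 171 and 189 CPM at 0 h (0.83 ± 0.23, adjusted p = 0.013), and mt-Co1, the catalytic subunit of complex IV, 292 and 372 CPM against 236 and 181 CPM at 0 h (0.67 ± 0.22, adjusted p = 0.040). In each case both 24 h libraries were above both 0 h libraries. The other was the nuclear Ndufa12, with 192 and 269.6 CPM at 24 h against 105 and 119.5 CPM at 0 h (1.04 ± 0.23, adjusted p = 0.0020). The mt-Co1 call was lost without any 1 of the 4 libraries, with DESeq2's size factors and with library sizes from nuclear genes only. Those of mt-Nd2 and mt-Nd5 were lost without either 0 h library or 24 h replicate 2 (mt-Nd2) or 1 (mt-Nd5). That of Ndufa12 was lost without 0 h replicate 1 or 24 h replicate 2.

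The 6 called lower at 24 h of the 2iL course were nuclear: Cox7a1 (log2 fold change -1.79), Cox7a2l (-1.01), Ndufa9 (-0.77), Ndufs7 (-0.64), Cox6a1 (-0.58) and Ndufa13 (-0.53). The calls for Ndufs7 and Cox6a1 were lost without any 1 of the 4 libraries, that for Ndufa9 without 3 of them (all but 24 h replicate 1), that for Cox7a1 without 24 h replicate 1 and that for Cox7a2l without 24 h replicate 2, and Ndufs7 was also lost with a replicate block. The mitochondrial members had a median of 0.25 and the nuclear members one of -0.24, against -0.03 over all tested genes. The composition of these libraries differed too: Gm42418 and the nuclear RNA Malat1 together made 279533 to 281311 CPM at 24 h, against 88708 to 107128 CPM at 0 h. The count of 10 calls was the same with library sizes computed without Gm42418. It became 2 and 3 without 0 h replicates 1 and 2, 4 and 2 without 24 h replicates 1 and 2, and 25 without the 4 libraries that stood apart.

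By 84 h of the 2i course, subunits of every complex were called lower. At 72 h, 33 of 86 members were called lower and 0 higher, where 14.4% of all tested genes were called lower and 15.3% higher. At 84 h, 49 were called lower and 0 higher, where 17.1% were called lower and 17.5% higher. At an unadjusted p under 0.05, 43 members passed at 72 h and 57 at 84 h, in either direction. The share of all tested genes at this unadjusted threshold is not given, so nothing is read from these 2 counts. Only Ndufa8, mt-Co1 and mt-Nd6 had a fitted log2 fold change above 0 at 84 h, and none of these 3 was called. The median log2 fold change of the nuclear members was -0.48 at 72 h and -0.67 at 84 h, against -0.01 and -0.03 over all tested genes.

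Complex IV stood lowest. At 84 h, 10 of its 13 nuclear members were called lower (median log2 fold change -0.93), as were 10 of 16 of complex V (-0.74), 5 of 8 of complex III (-0.71), 19 of 35 of complex I (-0.58) and 1 of 4 of complex II (-0.50). At 72 h complex IV again had the lowest median and complex II the one nearest 0, while the order between them differed, with 8 of 13 for complex IV (-0.79), 3 of 8 for complex III (-0.50), 13 of 35 for complex I (-0.46), 6 of 16 for complex V (-0.43) and 0 of 4 for complex II (-0.10). The nuclear transcripts of complex IV summed to 56.2% of their 0 h level at 84 h and those of complex I to 66.8%. No test between complexes was made.

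**Figure D3:**
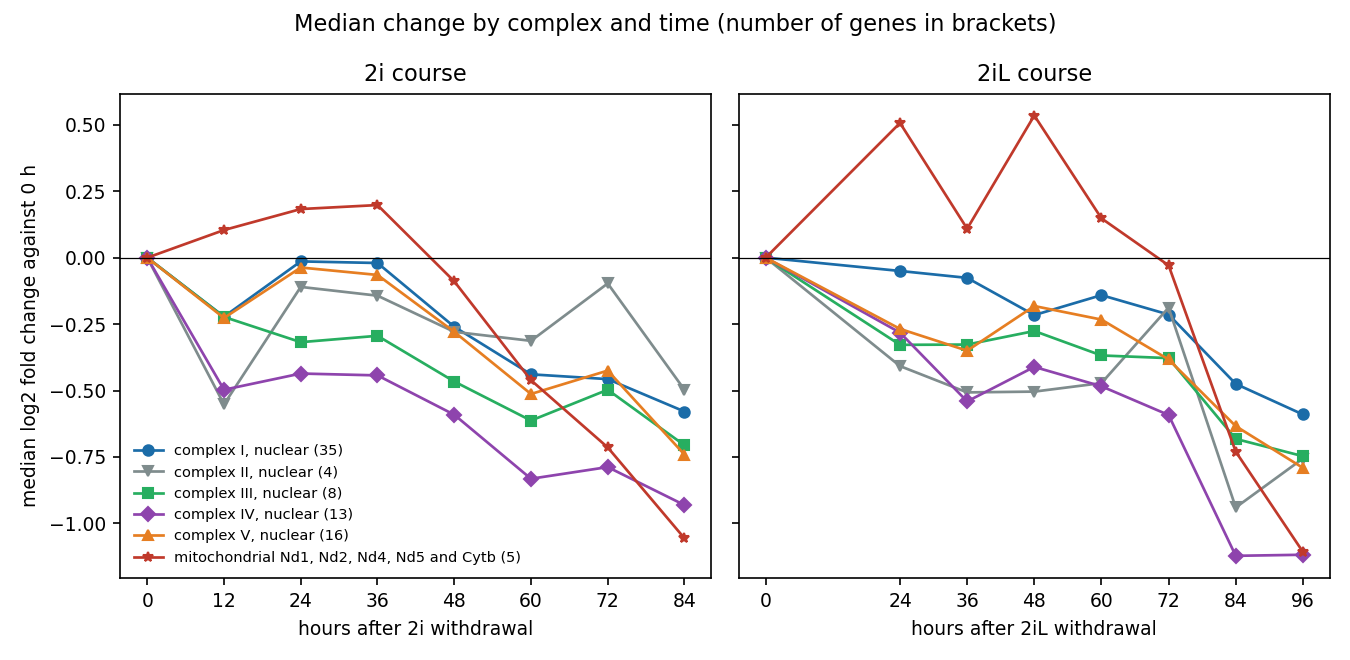
Median log2 fold change against 0 h at each time for the nuclear members of complexes I to V and for the mitochondrial mt-Nd1, mt-Nd2, mt-Nd4, mt-Nd5 and mt-Cytb, in the 2i and the 2iL course. At the last time complex IV has the lowest median of the nuclear groups, at -0.93 in the 2i course and -1.12 in the 2iL course. The medians at 36 h of the 2iL course come from the fit of all libraries. They rest almost wholly on replicate 1, since replicate 2 held very few counts.

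Among complex IV subunits, Cox6a1, a nuclear regulatory subunit (ENSMUSG00000041697; chr5:115345642-115348981, minus strand, mm10), had 110.2 and 111 CPM at 72 h and 125 and 111 CPM at 84 h, against 279 and 243 CPM at 0 h. Its log2 fold change was -1.24 ± 0.18 SE at 72 h (adjusted p = 2.3e-06) and -1.15 ± 0.18 at 84 h (adjusted p = 5.1e-06). The late libraries were all below those of 0 h, and both calls held without each library in turn. Cox7a2, the widely expressed paralog of Cox7a1, had 179 and 184 CPM at 84 h against 369.5 and 346 CPM at 0 h (-0.98 ± 0.18, adjusted p = 4.0e-05). Cox4i1, a structural subunit, had 170.0 and 170.2 CPM at 84 h against 298 and 310.3 CPM at 0 h (-0.84 ± 0.20, adjusted p = 0.0013). Cox6c, the nuclear complex IV subunit with the highest level here, had 463 and 432 CPM at 84 h against 754 and 790.5 CPM at 0 h (-0.79 ± 0.19, adjusted p = 0.0016). The 72 h and 84 h libraries of each of these genes lay under its 0 h libraries.

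In complex V the transcripts of the alpha and beta subunits fell, as did that of a subunit c gene. Atp5b, the beta subunit, had 452 and 478 CPM at 72 h and 431 and 454 CPM at 84 h, against 884 and 944 CPM at 0 h (84 h: log2 fold change -1.05 ± 0.21 SE, adjusted p = 0.00014). Atp5a1, the alpha subunit, had 364 and 406 CPM at 84 h against 752 and 685 CPM at 0 h (-0.90 ± 0.21, adjusted p = 0.00085). Atp5g1, above its 0 h level on the first day, had 41.5 and 34.3 CPM at 84 h against 73.9 and 73.9 CPM at 0 h (-0.97 ± 0.22, adjusted p = 0.00068). None of these genes had overlapping libraries at 84 h and 0 h, and the 3 calls held without each library in turn.

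Complexes III and I showed the same direction. Uqcr10, a small subunit of complex III, had 151 and 110.0 CPM at 84 h against 258 and 255 CPM at 0 h (log2 fold change -0.98 ± 0.21 SE, adjusted p = 0.00033), and Uqcrc1, a core protein, 60.3 and 65.2 CPM against 110.4 and 124 CPM at 0 h (-0.90 ± 0.19, adjusted p = 0.00044). Ndufb4, an accessory subunit of the membrane arm of complex I, had 16.2 and 23.2 CPM at 84 h against 49.5 and 48.9 CPM at 0 h (-1.31 ± 0.29, adjusted p = 0.00071). Ndufb4 had the lowest fold change of the nuclear complex I members at 84 h. In complex II, Sdha, the flavoprotein that oxidises succinate, had 77.9 and 85.7 CPM at 84 h against 134 and 140.4 CPM at 0 h (-0.74 ± 0.17, adjusted p = 0.0011). The 4 genes had no overlap between 84 h and 0 h.

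The number of calls depended on single libraries, though the share of all tested genes called in the same runs is not given beside it. The 33 calls at 72 h became 13 and 20 without 0 h replicates 1 and 2 and 12 and 21 without 72 h replicates 1 and 2, and the 49 calls at 84 h became 30 and 37 without 0 h replicates 1 and 2 and 31 and 30 without 84 h replicates 1 and 2. With DESeq2's size factors the median of all tested genes was itself 0.15 at 72 h and 0.17 at 84 h, in place of -0.01 and -0.03, and 17 and 28 members were called, while DESeq2 called 7 and 13. Relative to the median of all genes the nuclear members then stood at -0.46 and -0.64, as they did with TMM (-0.46 and -0.65). Both these size factors and DESeq2 were computed with 2iL 36 h replicate 2 included. The early neural markers, 5 of 5 called higher at 84 h, summed to 585 to 659 CPM at 84 h against 26.1 to 35.3 CPM at 0 h, and those of fibroblasts, 3 of 3 tested called higher, to 15.6 to 28.7 CPM against 1.6 to 5.1 CPM. Those of primitive endoderm, 2 of 2 tested called higher, summed to 638 to 703 CPM at 84 h against 322 to 423 CPM at 0 h, and those of trophectoderm, 2 of 3 called higher, to 45.3 to 61.6 CPM against 11.8 to 15.9 CPM. The 5 formative markers, 1 called higher and 3 lower, summed to 241 to 280.2 CPM against 610 to 612 CPM. Their part in the level of the respiratory chain transcripts was not tested.

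In the 2iL course, too, subunits of every complex were called lower. At 72 h, 19 of 86 members were called lower and 2 higher, where 14.8% of all tested genes were called lower and 15.3% higher. At 96 h, 54 were called lower and 0 higher, where 20.6% were called lower and 20.5% higher. At an unadjusted p under 0.05, 29 and 62 members passed in either direction, again without the share of all tested genes at this threshold. The median of the nuclear members was -0.33 at 72 h and -0.72 at 96 h, against 0.01 and -0.02 over all tested genes. At 96 h, 11 of 13 nuclear members of complex IV were called lower (median log2 fold change -1.12), 12 of 16 of complex V (-0.79), 2 of 4 of complex II (-0.76), 6 of 8 of complex III (-0.75) and 19 of 35 of complex I (-0.59). Complex IV again had the lowest median, and its nuclear transcripts summed to 54.7% of their 0 h level, against 74.1% for complex I.

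Cox6a1 had 161 and 153 CPM at 72 h and 85.8 and 115 CPM at 96 h of the 2iL course, against 334 and 346 CPM at 0 h. Its log2 fold change was -1.11 ± 0.18 SE at 72 h (adjusted p = 5.2e-06) and -1.75 ± 0.18 at 96 h (adjusted p = 1.5e-09). Cox7a1, high in 2iL cells, had 2.51 and 4.72 CPM at 72 h and 1.35 and 3.59 CPM at 96 h, against 31.2 and 34.4 CPM at 0 h (96 h: -3.56 ± 0.47, adjusted p = 1.9e-07). The late libraries of both genes lay under those of 0 h, those of Cox7a1 on 2 to 9 counts each. Uqcr10 had 136 and 116 CPM at 96 h against 275 and 358 CPM at 0 h (-1.33 ± 0.21, adjusted p = 2.8e-06), and Atp5g1 35.8 and 30.3 CPM against 78.6 and 96.9 CPM at 0 h (-1.42 ± 0.22, adjusted p = 2.1e-06). Sdhb had 99.3 and 124 CPM at 96 h against 200.4 and 244 CPM at 0 h (-0.99 ± 0.19, adjusted p = 6.5e-05). These 5 calls at 96 h held without each library in turn.

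Of the members called lower at the last time, 37 were shared by the courses, 75.5% of the 49 at 84 h of the 2i course and 68.5% of the 54 at 96 h of the 2iL course. Over all tested genes 1285 were called lower in both, 63.8% of those in the 2i course and 52.9% of those in the 2iL course. The courses shared 12 at 72 h, 36.4% of 33 in the 2i course and 63.2% of 19 in the 2iL course, where all tested genes shared 47.8% and 46.4%. The difference between the members and all genes was not tested. The 54 calls at 96 h became 44 and 36 without 0 h replicates 1 and 2 and 33 and 51 without 96 h replicates 1 and 2, and the 21 calls at 72 h became 16 and 9 without 0 h replicates 1 and 2 and 12 and 8 without 72 h replicates 1 and 2. Without the 4 libraries that stood apart, 39 members were called at 72 h and 50 at 96 h, and DESeq2 called 9 and 27. The early neural markers, 4 of 5 called higher at 96 h, summed to 199 to 261 CPM at 96 h against 28.2 to 32.1 CPM at 0 h, and the formative markers, 5 of 5 called higher, to 1061 to 1220.1 CPM against 124 to 135 CPM. Those of trophectoderm, 2 of 3 tested called higher and 1 lower, summed to 56.7 to 57.4 CPM against 1.8 to 6.8 CPM. Those of primitive endoderm, 1 of 2 called higher, summed to 698.5 to 987 CPM against 629 to 687 CPM, and those of fibroblasts, 1 of 3 called higher, to 17.9 to 20.9 CPM against 1.8 to 4.7 CPM. Their part was not tested.

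**Figure D4:**
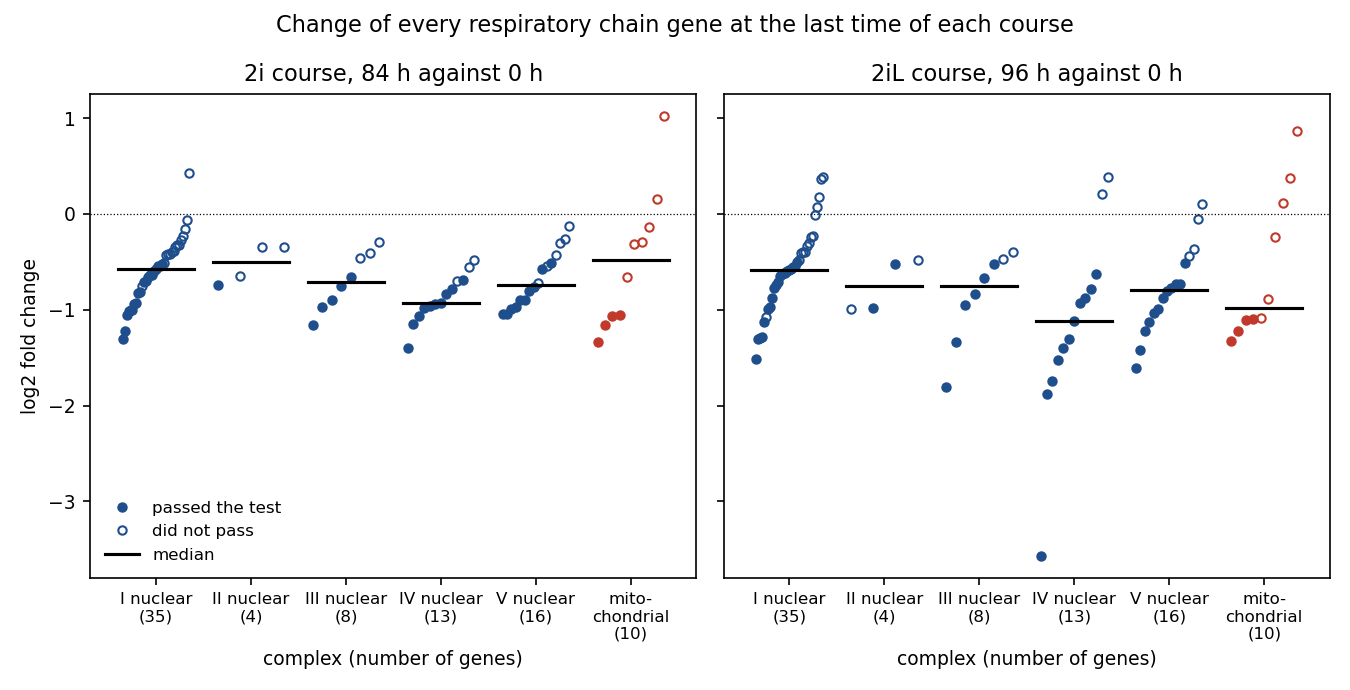
Fitted log2 fold change of each member at 84 h against 0 h of the 2i course (left) and at 96 h against 0 h of the 2iL course (right), grouped by complex, with filled points for members at an adjusted p under 0.05 and bars for medians. Of 86 members, 49 are filled in the 2i course and 54 in the 2iL course, all of them below 0.

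The mitochondrial members did not move as a block. mt-Nd1, a core subunit of complex I (ENSMUSG00000064341; chrM:2751-3707, plus strand, mm10), had 929 and 918 CPM at 84 h of the 2i course against 1855 and 1986 CPM at 0 h (log2 fold change -1.06 ± 0.20 SE, adjusted p = 7.9e-05). In the 2iL course it had 690.3 and 825 CPM at 96 h against 1602 and 1632 CPM at 0 h (-1.09 ± 0.20, adjusted p = 3.9e-05). mt-Nd2 fell by 1.15 on the log2 scale at 84 h and by 1.33 at 96 h, and mt-Nd4 by 1.06 and 1.11. These 3 complex I genes were called lower at the last time of both courses, also without each library in turn, and their libraries did not overlap with those of 0 h.

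mt-Cytb, the only complex III subunit of the mitochondrial DNA, had 288 and 491 CPM at 96 h of the 2iL course against 932 and 899 CPM at 0 h (log2 fold change -1.22 ± 0.35 SE, adjusted p = 0.0057), a call lost without 96 h replicate 1. In the 2i course it had 633 and 595 CPM at 84 h against 1044 and 890.5 CPM at 0 h, which was not called. By contrast mt-Co1 had 252 and 212 CPM at 84 h against 245 and 169 CPM at 0 h of the 2i course, and 289.8 and 252 CPM at 96 h against 236 and 181 CPM at 0 h of the 2iL course (log2 fold change 0.16 and 0.38, neither called). mt-Nd5 had fitted values of -0.14 and 0.12 at these times, and mt-Nd6 1.03 and 0.87, none of them called. The replicates of mt-Nd6 differed widely, with 101 and 15.1 CPM at 96 h of the 2iL course, against 36.3 and 23.1 CPM at 0 h. The transcript end of mt-Co1 has an identical nuclear copy, and the part of this in its counts was not tested.

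The 3 low mitochondrial members gave little. mt-Co3, with an identical nuclear copy, was called lower at 84 h of the 2i course, with 3.89 and 6.63 CPM at 84 h against 15.02 and 11.9 CPM at 0 h (log2 fold change -1.34 ± 0.48 SE, adjusted p = 0.029). The call was lost without 0 h replicate 1, 84 h replicate 1 or 84 h replicate 2. mt-Co2 had 11.03 and 6.08 CPM at 84 h against 9.74 and 11.4 CPM at 0 h, and mt-Atp6 5.19 and 5.53 CPM against 7.31 and 5.68 CPM at 0 h. The groups of mt-Co2 overlapped, those of mt-Atp6 did not, and neither gene was called.

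**Figure D5:**
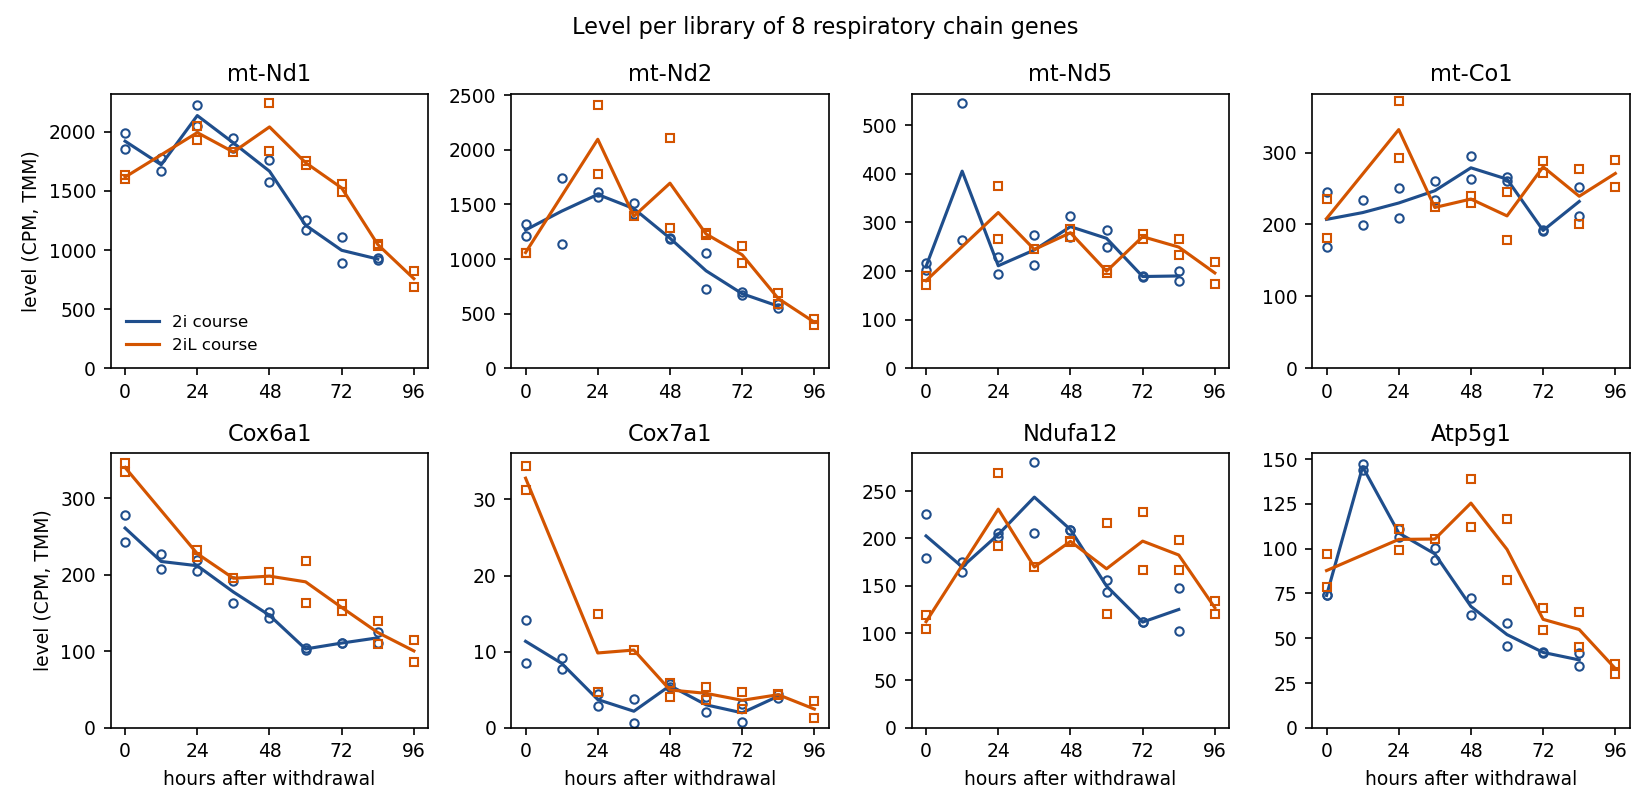
Level (TMM-scaled CPM) per library against hours after withdrawal for mt-Nd1, mt-Nd2, mt-Nd5, mt-Co1, Cox6a1, Cox7a1, Ndufa12 and Atp5g1. Circles are the 2i course and squares the 2iL course, and 2iL 36 h replicate 2 is left out. mt-Nd1 and mt-Nd2 end below their 0 h levels in both courses while mt-Co1, whose transcript end has an identical nuclear copy, does not. Atp5g1 is above its 0 h level of 73.9 CPM at 12 h and 24 h of the 2i course.

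Several subunits have paralogs that take the same place in a complex, and for 4 of these places 1 gene held nearly all counts. Cox4i2, Cox6a2, Cox8c and Ndufa4l2, isoforms known from lung, heart and muscle, testis and hypoxic cells, averaged 0.383, 0.375, 0.309 and 0.358 CPM and were under the limit. Their partners Cox4i1, Cox6a1, Cox8a and Ndufa4 were called lower at 96 h of the 2iL course, where Cox4i1 fell by 0.88 and Cox8a by 1.88 on the log2 scale. Ndufa4, counted by its symbol with complex I although its protein is known as a subunit of complex IV, had 2.70 and 23.1 CPM at 96 h against 42.7 and 28.97 CPM at 0 h (-1.30 ± 0.49, adjusted p = 0.033). That call was lost without 96 h replicate 1 or 0 h replicate 1.

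Where both paralogs were measured they did not always move together. Cox6b1 had 40.5 and 64.6 CPM at 96 h of the 2iL course against 161 and 147 CPM at 0 h (log2 fold change -1.52 ± 0.23 SE, adjusted p = 2.3e-06). Cox6b2, its paralog known from testis, had 67.5 and 47.0 CPM at 96 h against 43.2 and 43.5 CPM at 0 h and was not called (0.38). In 2i withdrawal both were called lower at 84 h, with log2 fold changes of -0.69 for Cox6b1 and -0.94 for Cox6b2. The call for Cox6b1 was lost without 0 h replicate 1 or either 84 h library, and that for Cox6b2 without 84 h replicate 2. The difference between the paralogs was not tested.

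Of the Cox7a genes, Cox7a2l, a factor known to join complexes III and IV into supercomplexes, had 186 and 130.3 CPM at 24 h of the 2iL course against 304 and 338 CPM at 0 h (log2 fold change -1.01 ± 0.25 SE, adjusted p = 0.0061), a call lost without 24 h replicate 2. At 96 h it had 427 and 315 CPM, which overlap with those 0 h values, and was not called (0.20). Cox7a2 instead had 183 and 175 CPM at 96 h against 315 and 369 CPM at 0 h (-0.93 ± 0.17, adjusted p = 5.6e-05). Among the subunit c genes of complex V, Atp5g3 had 119.6 and 313 CPM at 96 h against 676 and 657 CPM at 0 h (-1.60 ± 0.35, adjusted p = 0.00038). Atp5g2 had 5.404 and 7.17 CPM at 96 h against 8.12 and 8.60 CPM at 0 h and was not called (-0.37). In 3′ end counts Atp5g3 had the highest level of the 3 in every group named here, and of the 3 Atp5g1 was called higher at 12 h and 24 h of the 2i course. Atp5g2 had 13.4 and 9.18 CPM at 12 h and 9.01 and 10.2 CPM at 24 h, against 6.09 and 11.4 CPM at 0 h, which overlap.

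The courses could be compared directly at 24 h and 72 h, by testing how far the fold change of the 2iL course exceeded that of the 2i course. At 24 h no member was called, where 3.21% of all tested genes were. At an unadjusted p under 0.05, 6 members passed, without a share of all tested genes to set beside them. The smallest adjusted p of edgeR was 0.069, and DESeq2 also made 0 calls. At 72 h, 4 members were called, all higher, where 5.34% of all tested genes were called higher and 4.6% lower. Ndufa12 had 167 and 228 CPM at 72 h against 105 and 119.5 CPM at 0 h in the 2iL course (log2 fold change 0.81 ± 0.23 SE), and 112 and 111 CPM at 72 h against 226 and 179.6 CPM at 0 h in the 2i course (-0.86 ± 0.23). The difference was 1.67 ± 0.32 (adjusted p = 0.00047), and it held without each of the 8 libraries in turn. At 0 h this gene was called higher in 2i than in 2iL cells, the direction opposite to that of the levels at 72 h. Of the 4 libraries at 0 h, that call held only without 2i replicate 2.

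The other 3 were Ndufs1, an iron-sulphur subunit of complex I (1.21 ± 0.30, adjusted p = 0.0071), mt-Nd1 (0.86 ± 0.28, adjusted p = 0.043) and Atp5e, the epsilon subunit of ATP synthase (0.83 ± 0.24, adjusted p = 0.023). Ndufs1 had 90.02 and 87.1 CPM at 72 h against 60.3 and 80.1 CPM at 0 h in the 2iL course, and 44.96 and 56.4 CPM against 84.5 and 101 CPM at 0 h in the 2i course. mt-Nd1 had 1491 and 1558 CPM at 72 h against 1602 and 1632 CPM at 0 h in the 2iL course, and 889 and 1106 CPM against 1855 and 1986 CPM at 0 h in the 2i course. All 10 mitochondrial members had a difference above 0, as had 50 of 76 nuclear members. The medians were 0.71 and 0.13, and that of all tested genes was 0.06. The 10 were measured in the same 8 libraries and are not independent, and of them only mt-Nd1 was called. Leaving out 1 library at a time, the number of calls was 1 and 2 (2iL 0 h replicates 1 and 2), 2 and 2 (2iL 72 h), 2 and 1 (2i 0 h) and 1 and 3 (2i 72 h), where Ndufa12 was the one left whenever the number was 1 and mt-Nd1 was called in none of the 8. The number was 12 without the 4 libraries that stood apart and 1 with DESeq2.

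Over all 7 times tested jointly, 46 of 86 members (53.5%) varied in the 2i course and 52 (60.5%) in the 2iL course. Of all tested genes 54.8% and 59.1% did, a share close to that of the members. Atp5g1 had the smallest adjusted p of the members in the 2i course (3.0e-09) and Cox6a1 in the 2iL course (1.4e-08). The joint test does not use direction.

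Genes outside the complexes were counted on lists of the same pathway, to be read against the 14.4% and 17.1% of all tested genes called lower at 72 h and 84 h of the 2i course and the 14.8% and 20.6% at 72 h and 96 h of the 2iL course. Of 14 electron carriers, exchangers and subunits with other symbols, 8 were called lower at 72 h and 9 at 84 h of the 2i course, and 2 at 72 h and 6 at 96 h of the 2iL course, with 0 called higher at these times. Slc25a4, the ADP/ATP carrier of the inner membrane, had 159 and 175 CPM at 72 h of the 2i course against 639.9 and 603 CPM at 0 h (log2 fold change -1.90 ± 0.19 SE, adjusted p = 1.1e-09). Slc25a5, its paralog, stood at -1.31 and Etfa, which passes electrons from fatty acid oxidation to the chain, at -1.20. Pyruvate dehydrogenase and the citric acid cycle, which supply the NADH and succinate, had 7 of 20 called lower at 72 h and 7 at 84 h of the 2i course. In the 2iL course 2 were called lower and 1 higher at 72 h, and 6 lower at 96 h. Of the changes called at 72 h, the widest were those of Pdk1 (-2.32 in the 2i course), a kinase that inhibits pyruvate dehydrogenase, Idh2 (-1.88 in the 2iL course) and Pdha1 (-1.06 in the 2iL course).

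The assembly factors, proteins that build the complexes but do not stay in them, were counted likewise. Of 14 for complex I, 2 were called lower at 72 h and 1 at 84 h of the 2i course, and 2 at 72 h and 3 at 96 h of the 2iL course. Of 30 for complexes II to V, 3 and 6 were called lower in the 2i course and 3 and 8 in the 2iL course at these times. Set against the shares of all tested genes called lower, the counts for complex I assembly were close to or under the background. Those for complexes II to V were under it at 72 h of both courses and a little above it at the last time. Nothing is read from these counts. Ndufaf7 was called higher at 72 h of the 2iL course (log2 fold change 1.06), where Ndufaf5 was called lower (-1.39), and Ndufaf3 was called lower at 72 h of the 2i course (-1.28). Cox17, a copper chaperone for complex IV, was called lower at 72 h of the 2i course (-1.27), and Bcs1l (-0.99) and Cox20 (-0.93) at 72 h of the 2iL course.

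Of 19 genes for transcription, RNA stability and replication of mitochondrial DNA, 3 and 6 were called lower at 72 h and 84 h of the 2i course and 0 and 4 at 72 h and 96 h of the 2iL course, where 1 was called higher at each time. The counts of 3 at 72 h of the 2i course and 4 at 96 h of the 2iL course were close to the 14.4% and 20.6% of all tested genes. Polrmt, the mitochondrial RNA polymerase, had 6.97 and 4.64 CPM at 72 h of the 2i course against 16.2 and 15.3 CPM at 0 h (-1.42 ± 0.40, adjusted p = 0.0062). Pnpt1 stood at -0.86 at 72 h of the 2i course, while Ssbp1, which binds single-stranded mitochondrial DNA, was called higher at 72 h of the 2iL course (0.96). Tfam, which packages and transcribes mitochondrial DNA, was not called in these comparisons. Tfam was chosen after its values were seen. Of 14 tested regulators of mitochondrial biogenesis, 2 were called higher and 4 lower at 72 h of the 2i course and 4 higher and 2 lower at 72 h of the 2iL course. They included Esrrb (-5.95 in the 2i course), also a naive pluripotency factor, Stat3 (-2.54 in the 2iL course), the transcription factor that LIF activates, and Lin28b (3.60 in the 2iL course), an RNA-binding protein. At the last time 2 were called higher and 5 lower in the 2i course and 3 higher and 5 lower in the 2iL course.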

How the data were processed

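Raw counts per gene of 32 libraries were deposited by the authors, and a table of CPM values was deposited by the authors as well; these differed from the counts scaled to 1000000 by at most 4.7e-10. Per the labels' protocols, libraries were 3′ digital gene expression libraries of polyadenylated RNA. Per the submitters' processing notes, mm10 was the build and HTSeq, STAR 2.6.0a and bcl2fastq were used; the annotation release, strandedness and treatment of multiple alignments are not given in the sources used here. The 5 summary lines per file were left out of library sizes. In the 31 deeper libraries, 1 of these lines counted 1906754 to 6202216 alignments as not unique, with a median of 4365505. The median of the total gene counts was 1980949. Uniquely aligned reads outside genes made 23.8 to 55.6% in the same libraries. A count of 3 was 0.873 to 2.67 CPM there.

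The members, lists and tests were chosen with earlier results of these data known. Levels are TMM-scaled CPM. All 32 libraries entered 1 edgeR 4.0.16 quasi-likelihood fit (limma 3.58.1, R 4.3.3) with 16 groups and a filter on low counts (filterByExpr), tested on simulated data. Adjusted p-values are Benjamini-Hochberg over 11761 genes, and an adjusted p under 0.05 is called lower or higher. SEs divide the fitted log2 value by the root of its F statistic and pool the spread of all groups. The comparisons at 84 h (2i) and 96 h (2iL) were added after the counts by time were seen. DESeq2 1.42.0, other scalings and left-out libraries were alternatives. Counts of calls under these alternatives stand without the share of all tested genes, so their changes are not read as particular to the members. Named genes are the mitochondrial members, the 3 most abundant nuclear members per complex, the 5 largest called rises and falls per comparison, paralogs, and the 3 largest called changes per list; others serve as examples of their complex and were chosen after their values were seen. Near-identical copies were sought with blastn 2.17.0+ in GENCODE M21 transcripts.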

Additional observations from a re-analysis of the deposited data

Results flagged for a closer look

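In 4 members the change from 0 h to 72 h differed between the courses by a test of the difference itself (2iL change minus 2i change). The difference was 1.67 for Ndufa12, 1.21 for Ndufs1, 0.86 for mt-Nd1 and 0.83 for Atp5e on the log2 scale. These 4 of 86 (4.7%, all higher) stand beside 5.34% of all tested genes called higher and 4.6% lower, so their number is near the background. Ndufa12 was called higher at 72 h of the 2iL course and lower at 72 h of the 2i course, while Ndufs1 and mt-Nd1 were called lower at 72 h of the 2i course and not called at 72 h of the 2iL course. The difference for Ndufa12 passed without each library in turn, while that for mt-Nd1 did not pass without any 1 of the 8 libraries.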

How the results depend on the processing

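The counts of calls depended on the settings. They are given without the share of all tested genes called in the same setting, so a change in them is not read as particular to the members. Of 1618 values of named genes under other settings, 1306 kept their call, 312 lost it and 0 reversed. DESeq2 lost 64 of 115 calls. Only results already called by edgeR entered these values, and every setting reused the same libraries. A reversal was therefore unlikely from the start, and its absence is not a test of direction. With DESeq2 the members called numbered 0 in 2i against 2iL cells (edgeR: 3), 2, 1, 7 and 13 at 12, 24, 72 and 84 h of the 2i course (edgeR: 6, 6, 33 and 49), 3, 9 and 27 at 24, 72 and 96 h of the 2iL course (edgeR: 10, 21 and 54), 1 for the difference between courses at 72 h, and 14 and 18 for all times of the 2i and 2iL courses jointly. With only the compared groups in the fit they numbered 18 (2i against 2iL cells), 11, 29 and 51 (12, 24 and 72 h of the 2i course), 20 and 44 (24 and 72 h of the 2iL course), 7 and 17 (differences at 24 and 72 h), and 72 and 19 (joint tests). Without the 4 libraries that stood apart they numbered 8 (2i against 2iL cells), 15 (24 h, 2i), 25 and 39 (24 and 72 h, 2iL), 5 and 12 (differences) and 70 (joint, 2i). With no filter on low counts they numbered 13 and 3 (12 and 24 h, 2i), 6 (24 h, 2iL) and 1 (difference at 24 h). The causes were not tested.

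With DESeq2's size factors, 17 and 28 members were called at 72 and 84 h of the 2i course and 2 for the difference at 72 h. The medians then were -0.31 and -0.47 (nuclear) and -0.52 and -0.28 (mitochondrial) at 72 and 84 h of the 2i course, and -0.58 (nuclear) and -0.84 (mitochondrial) at 96 h of the 2iL course. The nuclear median at 96 h was -0.61 without the 4 libraries. DESeq2 and its size factors were computed with 2iL 36 h replicate 2, which held very few counts. Of 115 calls of named genes, 22 were lost with DESeq2's size factors, and 10 with them when that library was left out.

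Leaving out 1 library at a time, calls ran from 0 to 2 in 2i against 2iL cells, 1 to 7, 1 to 2, 12 to 21 and 30 to 37 at 12, 24, 72 and 84 h of the 2i course, 2 to 4, 8 to 16 and 33 to 51 at 24, 72 and 96 h of the 2iL course, and 1 to 3 for the difference at 72 h. Nuclear medians ran from -0.40 to -0.21 at 12 h of the 2i course and from -0.90 to -0.59 at 96 h of the 2iL course. Mitochondrial medians ran from -0.76 to -0.50 at 72 h and -0.72 to -0.47 at 84 h of the 2i course, and from -1.18 to -0.86 at 96 h of the 2iL course.

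The replicate numbers showed no uniform pairing of the libraries. Over 105 pairs of groups the correlation of same-numbered deviations had a median of 0.013, and 21 pairs were over 0.1. It ran from -0.68 to 0.752, so some groups shared deviations in the same or the opposite direction. A pairing within part of the groups was not tested. With a replicate block the counts of calls were 3 (2i against 2iL cells), 6, 6, 33 and 50 (2i course), 8, 21 and 51 (2iL course), 0 and 4 (differences) and 45 and 53 (joint tests).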
